A study of Bos taurus with 8 samples.

Results

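The miR-29 family was described here in rumen fluid, as the 5 bovine entries bta-miR-29a, bta-miR-29b, bta-miR-29c, bta-miR-29d-3p and bta-miR-29d-5p. Members were chosen by name from the deposited tables, which list 565 bovine and human miRNA entries, and all 5 passed the minimum of 10 reads in at least 1 library that 377 entries passed. Of these, 268 were bovine and 109 human. Shares over all entries count a human entry with the reads of a bovine entry as a further entry. MicroRNAs are short RNAs that pair with messenger RNAs through a seed near their 5′ end and repress them. The 3p strands of the miR-29 family carry the same seed and are best known for repressing collagens, elastin and other matrix genes, and the DNA methyltransferases DNMT3A and DNMT3B. They are often low in fibrotic tissue, whereas the 5p strands are usually the less abundant products of the hairpins.

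Fluid was taken from the rumen of 4 non-lactating Holstein cows, about 10 years old and carrying a ruminal cannula, to ask whether a change of diet changes the miRNAs in the fluid. Each cow was sampled on day 7 of a forage diet with 0% concentrate and again on the first day on which a high-grain (HG) diet held 65% concentrate, in both cases 4 h after the morning feeding. No cow was kept on forage throughout, and forage always came first, so diet and sampling date cannot be told apart. A forage and an HG library of the same number were treated as 1 cow, which is an assumption, since the labels do not name the cows.

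The forage libraries held 331864 to 522804 miRNA reads (median 475116) and the HG libraries 300116 to 390774 (median 362126). MiRNA reads made up 6.67% to 29.3% of all reads in forage and 8.59% to 27.8% in HG. HG replicate 2 stood apart: of the 377 entries, 35.5% were higher in it than in every other library and 30.5% were lower than in every other library. Means are therefore given with and without this library. Fold changes are given with and without replicate 2, which leaves out forage replicate 2 as well. Among the other 7 libraries, 4 of 9 same-diet pairs and 3 of 12 pairs across diets had proportions over 78 bovine entries that agreed within counting noise (chi-square p over 0.05). No tables were identical, and libraries were kept as separate samples. Rumen fluid has no cell type of its own, and the libraries held markers of several sources, with erythrocyte miRNAs summing to 112031 to 134721 counts per 1000000 (CPM, scaled by TMM), leukocyte miRNAs to 13956 to 15173 and epithelial miRNAs to 14321 to 23340. CPM are relative to counts summed over the 377 entries, where a shared read counts at each of its entries. In forage replicate 1 this sum was 753801, against 494162 miRNA reads. CPM are therefore not shares of miRNA reads.

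The family is encoded in the bovine genome in 3 places. On build UMD3.1, as the files give it, mature bta-miR-29a lies at chr4:95402359-95402381 on the minus strand, and 1 of the hairpins of bta-miR-29b lies 385 bases from it at chr4:95402744-95402766. In the annotation of ARS-UCD2.0, used for names only, both hairpins lie inside the long noncoding RNA LOC107131356, between the coding genes KLF14 and MKLN1. The other hairpin of bta-miR-29b (chr16:77478084-77478106, plus strand) lies 562 bases from bta-miR-29c (chr16:77478646-77478667), and both lie between CD34 and CD46. Bta-miR-29d-3p at chr16:77562591-77562612 and bta-miR-29d-5p at chr16:77562553-77562573 lie in the opposite arms of 1 hairpin, 83945 bases from bta-miR-29c, inside the protein-coding gene LOC518224. Reads of bta-miR-29b cannot be assigned to either of its hairpins, since both give the same mature entry.

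Bta-miR-29a was the dominant member in every library, with 84.8% of all reads counted at the 5 entries. Bta-miR-29b followed with 7.88%, bta-miR-29c with 5.81%, bta-miR-29d-3p with 1.24% and bta-miR-29d-5p with 0.277%. By these full counts each member was above the next in 8 of 8 libraries, so the order was the same on both diets. Among the 268 bovine entries that passed the minimum, ranked by total reads, the members stood at places 29, 103, 112, 156 and 234 in that order.

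A read that matched several entries was counted in full at each, and this touches the members unequally. Bta-miR-29a had the same reads as the human entry hsa-miR-29a-3p in 8 of 8 libraries. Its full reads were 2.0 times its divided reads, in which each read is divided among its matches. The same equality held for bta-miR-29b with hsa-miR-29b-3p, bta-miR-29c with hsa-miR-29c-3p and bta-miR-29d-5p with hsa-miR-29c-5p. Bta-miR-29d-3p had no human entry with equal reads, yet only 67.7 of its 359 reads were left on division, a ratio of 5.31. This ratio was 4.22 for bta-miR-29b and 2.30 for bta-miR-29c. On divided reads the places of the members among bovine entries were 33, 127, 117, 217 and 240, and bta-miR-29c then stood above bta-miR-29b. Bta-miR-29b is placed in both bta-mir-29b-1 and bta-mir-29b-2, and bta-miR-29c in bta-mir-29c alone. Whether the division counts these hairpins as well as entries, which would lower bta-miR-29b, was not tested.

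**Figure D1:**
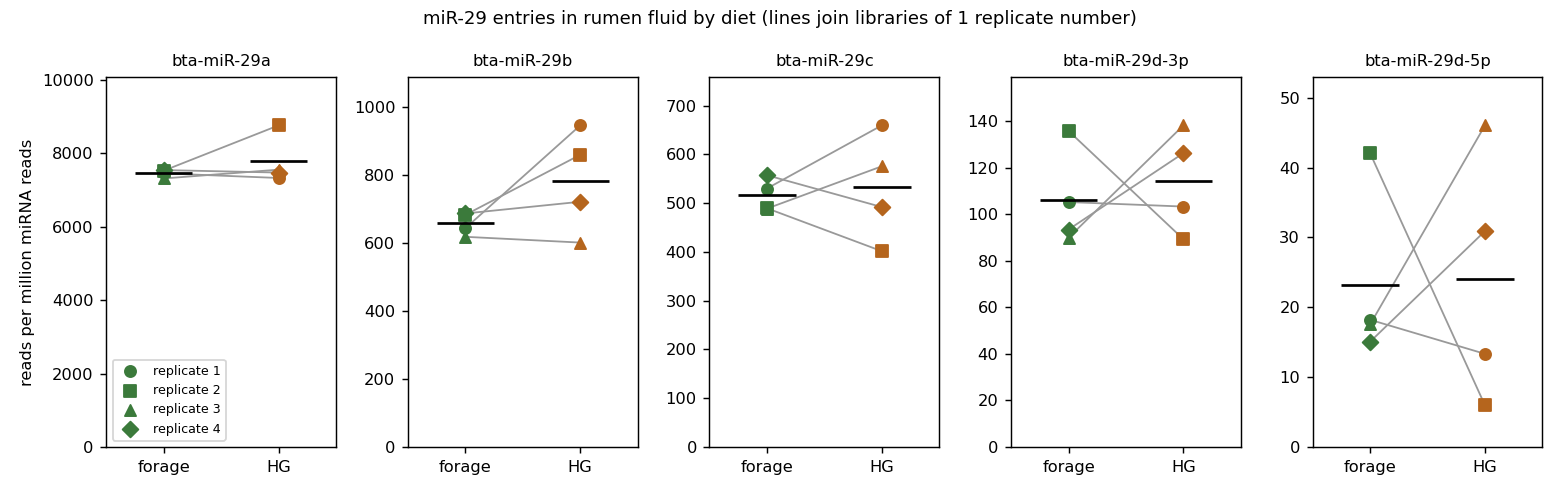
Reads per 1000000 miRNA reads (RPM) of each miR-29 entry in the 4 forage (green) and 4 HG (brown) libraries. Marker shapes give the replicate number, grey lines join libraries of 1 number, and black bars are group means. The diet groups overlap for all 5 entries, and each panel has its own axis.

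Bta-miR-29a, the most abundant repressor of matrix genes in the family, was within a narrow range in 7 of the 8 libraries. Its level was 7453, 7527, 7315 and 7542 reads per 1000000 miRNA reads (RPM) in forage replicates 1 to 4, and 7327, 8761, 7554 and 7475 RPM in HG replicates 1 to 4. The forage mean was 7459 ± 104 RPM (SD, n = 4) and the HG mean 7779 ± 661 RPM (SD, n = 4). HG replicate 2 was the only library above 7554 RPM, and its 95% Wilson interval of 8451 to 9082 RPM, which covers counting error only, lay above every other value. Without it the HG mean was 7452 ± 115 RPM (SD, n = 3). The groups overlapped, and the level was higher on HG in 2 of 4 cows.

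Bta-miR-29b, which shares the seed, spread over a wider range on HG than on forage, a difference that was not tested. It was at 644, 683, 618 and 687 RPM in forage replicates 1 to 4 and at 946, 860, 601 and 721 RPM in HG replicates 1 to 4. The means were 658 ± 32.9 RPM on forage and 782 ± 152 RPM on HG (SD, n = 4 each). HG replicates 1, 2 and 4 lay above all forage libraries, while HG replicate 3 lay below all of them. Without HG replicate 2 the HG mean was 756 ± 175 RPM (SD, n = 3). The interval of HG replicate 1 (842 to 1063 RPM) did not reach that of forage replicate 4 (603 to 782 RPM), the highest on forage.

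Bta-miR-29c, the partner of bta-miR-29b on chromosome 16, was at 530, 490, 489 and 557 RPM in forage replicates 1 to 4. On HG it was at 660, 402, 576 and 492 RPM. HG replicate 1 was the highest and HG replicate 2 the lowest of the 8 libraries, on either side of the forage range. The means were 517 ± 33.4 RPM and 532 ± 111 RPM (SD, n = 4 each), with 576 ± 83.8 RPM on HG without replicate 2 (SD, n = 3), and the level was higher on HG in 2 of 4 cows.

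The entries named for the bta-miR-29d hairpin had few reads. Reads of bta-miR-29d-5p cannot be assigned to this hairpin alone, since they were equally those of hsa-miR-29c-5p, placed in the bta-miR-29c hairpin at chr16:77478608-77478629. Bta-miR-29d-3p was at 105, 136, 89.9 and 93.4 RPM in forage replicates 1 to 4 and at 103, 89.2, 138 and 126 RPM in HG replicates 1 to 4. It rested on 30 to 71 reads a library and its groups overlapped over nearly their whole range (106 ± 20.9 against 114 ± 22.1 RPM, SD, n = 4 each), with 123 ± 17.7 RPM on HG without replicate 2 (SD, n = 3). Bta-miR-29d-5p was at 18.2, 42.1, 17.5 and 15.1 RPM on forage and at 13.3, 5.95, 46.1 and 30.9 RPM on HG. These values came from 2 to 22 reads a library, and the highest forage and the highest HG library had different numbers. The means were 23.2 ± 12.6 RPM on forage and 24.1 ± 18.0 RPM on HG (SD, n = 4 each), and 30.1 ± 16.4 RPM on HG without replicate 2 (SD, n = 3). Full counts at bta-miR-29d-3p exceeded those at bta-miR-29d-5p in every library, by 3.0 to 15 times, with the largest ratio in HG replicate 2, where bta-miR-29d-5p had 2 reads. These are ratios of 2 entries that share reads with other entries, not of the arms of 1 hairpin. On divided reads they were 1.13 to 6.0, again with the largest in HG replicate 2, and 1.23 in forage replicate 2.

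**Figure D2:**
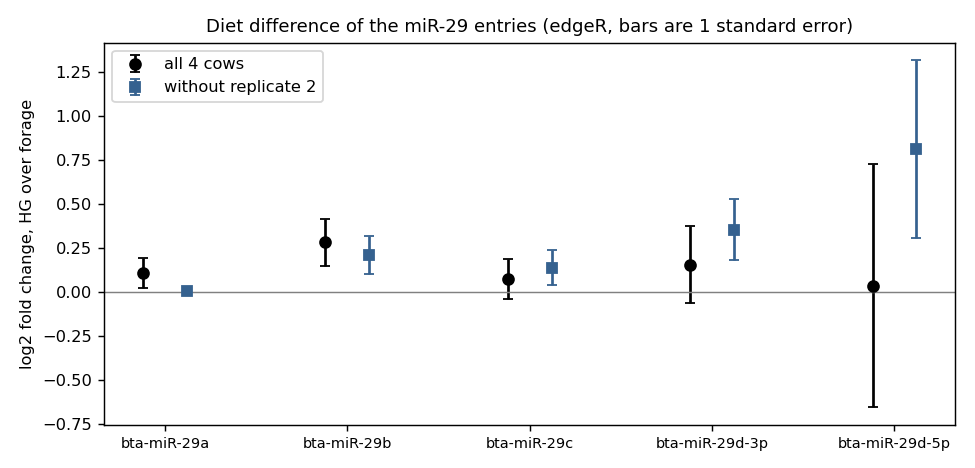
Log2 fold change (HG over forage) of each miR-29 entry from edgeR, with 1 standard error, for all 4 cows (black) and without replicate 2 of both diets (blue). Bta-miR-29a moved from 0.11 to 0.01 without replicate 2, and the estimate for bta-miR-29d-5p had the widest error.

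No member was called different between the diets. Of the 377 entries tested, 0.0% were called at an adjusted p under 0.05 by edgeR's quasi-likelihood test with cow in the model (Benjamini-Hochberg adjustment), 2.39% had an unadjusted p under 0.05, and none of the 5 members was in either set. DESeq2 also called 0 of 377 entries, with 3 at an unadjusted p under 0.05. Diet groups that did not overlap were found for 4.51% of entries, and for 0 of the 5 members. Without HG replicate 2 this was 6.37% of entries and again 0 of the 5 members. All 4 cows were higher on HG for 8.49% of entries and lower for 6.9%, and no member was in either set. Bta-miR-29b had the largest estimate among the members, 0.28 on the log2 scale (SE 0.13, 95% interval -0.05 to 0.61, adjusted p = 0.788 by edgeR), and was higher on HG in 3 of 4 cows, as exactly 3 of 4 cows were for 22.3% of all entries. Bta-miR-29a changed by 0.11 (SE 0.08, interval -0.10 to 0.32, adjusted p = 0.788 by edgeR) and bta-miR-29c by 0.07 (SE 0.11, interval -0.21 to 0.36, adjusted p = 0.841 by edgeR). For bta-miR-29d-3p the interval ran from -0.38 to 0.70 around 0.16, and for bta-miR-29d-5p from -1.68 to 1.75 around 0.04. The interval of bta-miR-29a bounds a change between the diets far more closely than that of bta-miR-29d-5p, for which changes of over 3-fold in either direction lay inside it. Without replicate 2 of both diets the estimates were 0.01 (SE 0.02) for bta-miR-29a, 0.21 (SE 0.11) for bta-miR-29b, 0.14 (SE 0.10) for bta-miR-29c, 0.36 (SE 0.18) for bta-miR-29d-3p and 0.81 (SE 0.50) for bta-miR-29d-5p, and none was called. With only HG replicate 2 left out and no cow in the model, they were -0.00216, 0.18, 0.15, 0.20 and 0.36 in that order. In these bulk samples fewer cells of a type and less RNA per cell cannot be told apart.

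Summed over the 5 entries, the family took 0.875%, 0.888%, 0.853% and 0.890% of miRNA reads in forage replicates 1 to 4. On HG it took 0.905%, 1.01%, 0.892% and 0.885%. The share was higher on HG in 3 of 4 cows, and the mean difference of 0.0469 percentage points was within the spread of the differences (SD 0.0548, n = 4, exact paired permutation test, two-sided, p = 0.25, adjusted p = 0.562 over the 3 single values tested). Without replicate 2 the difference was 0.0212 percentage points, on divided reads it was 0.0200, and with all reads as the denominator it turned to -0.0277. The sum of full counts can hold a read more than once where it matched several members. With 4 pairs this test cannot give a p below 0.125.

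**Figure D3:**
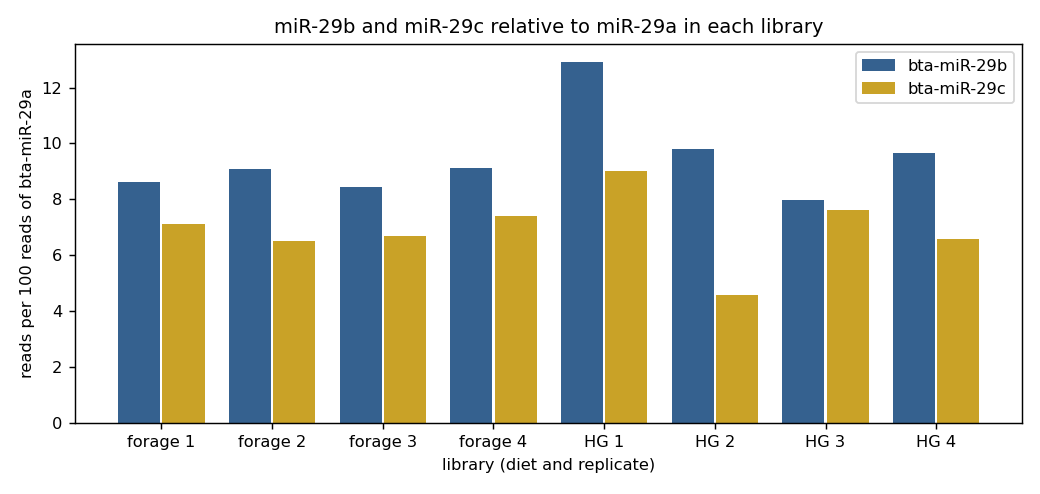
Reads of bta-miR-29b (blue) and bta-miR-29c (yellow) per 100 reads of bta-miR-29a in each library. The 4 forage libraries lie close together, whereas HG replicate 1 is highest for both and HG replicate 2 is lowest for bta-miR-29c.

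The balance of the members to each other was compared within libraries, where the total of miRNA reads cancels. Bta-miR-29b had 8.63, 9.07, 8.45 and 9.11 reads per 100 reads of bta-miR-29a on forage and 12.9, 9.81, 7.96 and 9.65 on HG. Bta-miR-29c had 7.11, 6.51, 6.68 and 7.39 on forage and 9.0, 4.58, 7.62 and 6.58 on HG. Both ratios overlapped between the diets, with the HG libraries on both sides of the forage range. The log2 ratio of bta-miR-29b to bta-miR-29a was 0.17 higher on HG (higher in 3 of 4 cows, exact paired permutation p = 0.375, adjusted p = 0.562), and that of bta-miR-29c to bta-miR-29a differed by -0.03 (higher in 2 of 4 cows, exact paired permutation p = 1.0). Without replicate 1 the first difference fell to 0.04, and without replicate 2 the second turned to 0.12. Without replicate 4 the second was 0.00911. By full counts bta-miR-29b exceeded bta-miR-29c by 1.04 to 2.14 times, with the lowest ratio in HG replicate 3 and the highest in HG replicate 2. On divided reads the ratio was 0.566 to 1.18 and bta-miR-29c was the higher in 7 of 8 libraries, all but HG replicate 2. That order can depend on the placement of bta-miR-29b in more than 1 hairpin, which was not tested.

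**Figure D4:**
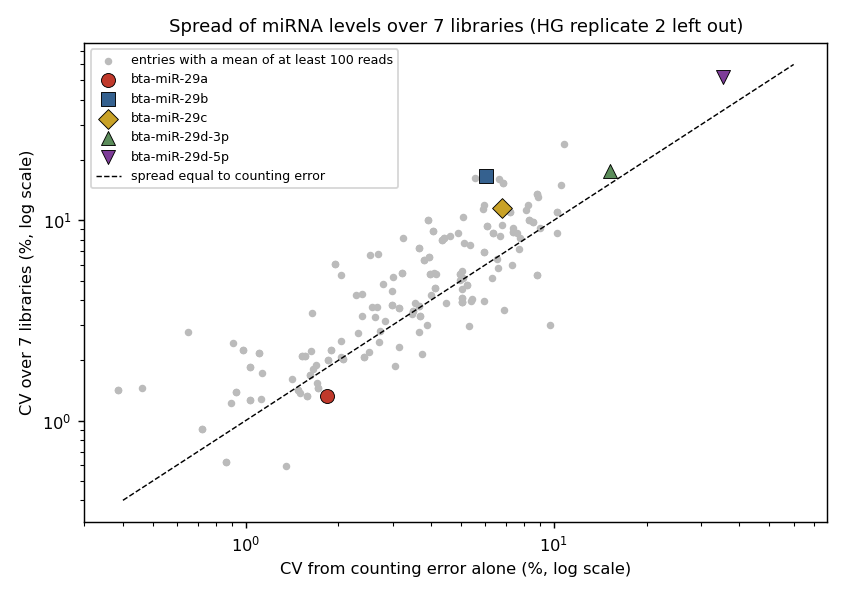
Coefficient of variation (CV) of each entry over the 7 libraries without HG replicate 2, against the CV that counting error alone would give, both in percent on log axes. Bta-miR-29a lies below the dashed line of equality and bta-miR-29b, bta-miR-29c, bta-miR-29d-3p and bta-miR-29d-5p above it.

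Over all 8 libraries bta-miR-29a had a CV of 6.17% and a chi-square per degree of freedom of 10.1, above the 7.19 of bta-miR-29b and the 3.72 of bta-miR-29c, with a median of 5.99 over the 186 entries with a mean of at least 100 reads. This order turned among the 7 libraries without HG replicate 2. Bta-miR-29a then had a CV of 1.33%, below the 1.84% that counting error alone gives, and its chi-square per degree of freedom of 0.519 was above that of 12 of the 186 entries. Bta-miR-29b had a CV of 16.6% against 6.0% from counting, with a chi-square per degree of freedom of 6.45 that was above that of 173 of the 186. That excess rested on HG replicate 1. Without this library as well, a choice made after seeing the data, bta-miR-29b had a CV of 6.94% over 6 libraries against 6.01% from counting, and its chi-square per degree of freedom of 1.29 was above that of 66 of the 186. Bta-miR-29c had a CV of 11.5% against 6.80%, which became 7.29% against 6.74% without HG replicate 1. For bta-miR-29a the value stayed low over these 6 libraries, at 0.467, above that of 13 of the 186. Bta-miR-29d-5p had a CV of 51.7% against 35.3% and bta-miR-29d-3p of 17.7% against 15.2%. Over the 4 forage libraries alone the value for bta-miR-29b was 0.722, close to 0.639 for bta-miR-29a and 0.878 for bta-miR-29c. These are descriptions with no test, and the median of the 186 entries was 1.36 over the 4 forage libraries and 1.58 over the 7. The 186 include human entries that repeat the values of bovine entries, among them hsa-miR-29a-3p, hsa-miR-29b-3p and hsa-miR-29c-3p.

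In HG replicate 2, where 35.5% of all entries were the highest and 30.5% the lowest of the 8 libraries, 2 of the 5 members were the highest and 2 the lowest. Relative to the median of the other 7 libraries, on TMM-scaled CPM, bta-miR-29a was at 1.35 times (log2 0.43) and bta-miR-29b at 1.44 times (log2 0.53), each the highest of the 8 libraries. The quartiles of this log2 ratio over the 186 entries with a mean of at least 100 reads were -0.15 and 0.51, so bta-miR-29a lay within them and bta-miR-29b just above. Bta-miR-29c was at 0.881 times and bta-miR-29d-5p at 0.380 times, each the lowest, and bta-miR-29d-3p was at 0.987 times. Scaled by miRNA reads in place of TMM, the values were 1.17, 1.26, 0.757, 0.327 and 0.848 in the order 29a, 29b, 29c, 29d-5p and 29d-3p, and bta-miR-29b was then second to HG replicate 1. Epithelial miRNAs (7 of 8 listed were detected) summed to 23340 CPM in this library, against 14321 to 14726 in the other 7. Stromal miRNAs (6 of 6) summed to 67885 CPM, against 42346 to 45991. Erythrocyte miRNAs (3 of 3) summed to 112031 CPM, against 128480 to 134721, and leukocyte miRNAs (6 of 6) to 13956, against 14718 to 15173, although 2 of these 6 were above the median of the other libraries. None of the detected markers was at 0 in any library, and the part of these sources in the miR-29 values was not tested.

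Other miRNAs known from work on matrix and fibrosis, among them bta-miR-21-5p, bta-miR-26a and bta-let-7g, were described alongside the family. All 11 of the list were detected, 6 had an estimate above 0 and 5 below, and 0 were called by edgeR. The median log2 fold change of the list was 0.06, against 0.03 over all 377 entries, and -0.00 without replicate 2. Their sum was 137857 to 140721 CPM on forage, 137737 to 140685 in HG replicates 1, 3 and 4, and 185718 in HG replicate 2. Bta-miR-21-5p alone made up 76877 CPM of the forage mean. In HG replicate 2, 7 of the 11 were above the median of the other libraries, with a median log2 ratio of 0.14, against 0.10 over the 186 entries with a mean of at least 100 reads. The list shares bta-miR-145, bta-miR-199a-5p and bta-miR-214 with the stromal list.

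**Figure D5:**
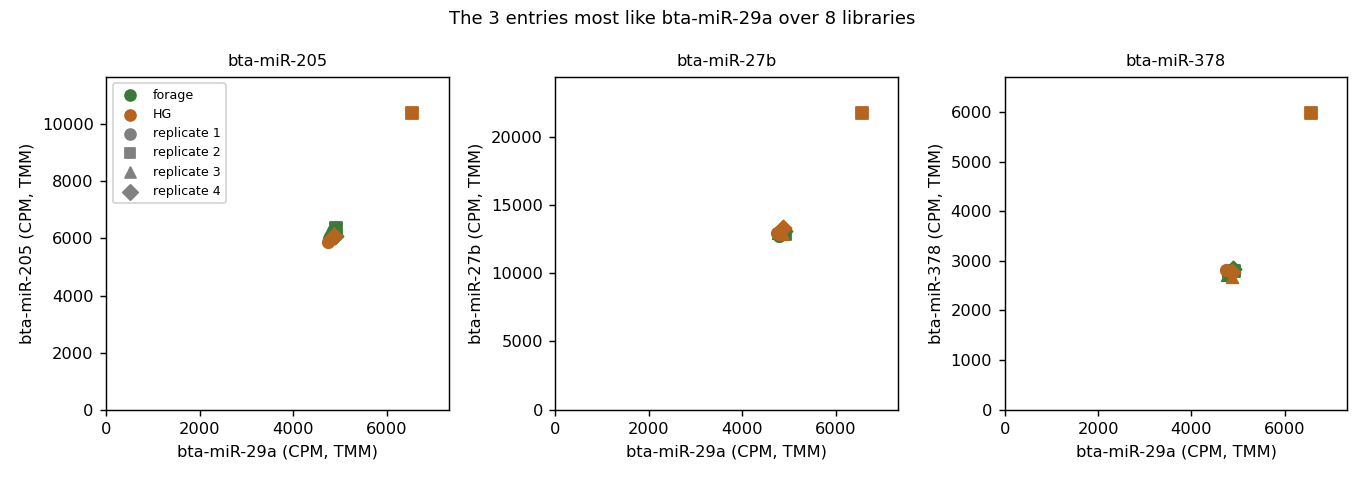
TMM-scaled CPM of the 3 bovine entries most like bta-miR-29a against bta-miR-29a in 8 libraries, coloured by diet and shaped by replicate. In each panel 7 libraries lie together and HG replicate 2 lies far to the upper right.

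The entries most like bta-miR-29a over the 8 libraries were bta-miR-205, an epithelial miRNA (Pearson r = 0.994 of log2 CPM), bta-miR-27b (0.993) and bta-miR-378 (0.992), of 139 candidates with at least 500 reads. Over the 7 libraries without HG replicate 2 these values were 0.572, 0.338 and 0.218. An r over 0.9 was found for 44 candidates over 8 libraries and for 0 over 7, where the highest was 0.799, so likeness to bta-miR-29a rested on 1 library. Among the other members, r with bta-miR-29a was 0.63 for bta-miR-29b and -0.51 for bta-miR-29c over 8 libraries, and -0.34 and -0.37 over 7. For bta-miR-29d-3p r was -0.09 over 8 libraries and 0.63 over 7, and for bta-miR-29d-5p -0.61 and 0.70. Over these 7 libraries bta-miR-29a varied less than counting error, and both bta-miR-29d entries were under the 500 reads required of candidates, so no order is read from these values. All libraries share their scaling, so these correlations are descriptions.

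For the bta-miR-29a and bta-miR-29b hairpins the 5p strands were listed under human names, while the reads of hsa-miR-29c-5p were those counted at bta-miR-29d-5p. Hsa-miR-29a-5p, which maps opposite bta-miR-29a in the same hairpin (chr4:95402322-95402343), had 6, 2, 0 and 4 reads in forage replicates 1 to 4 and 0, 71, 0 and 0 reads in HG replicates 1 to 4. In HG replicate 2 this was 211 RPM (95% Wilson interval 167 to 266), and 0 reads in the other 3 HG libraries allow up to 9.996, 7.68 and 7.73 RPM (3 reads). All 71 reads were of 1 distinct sequence, more than in any other of the 223 pairs of an entry and a library with 1 distinct sequence, whose median was 4 reads. The pairs next in number of reads were also in HG replicate 2, with 59 reads of bta-miR-2285au, 45 of bta-miR-11992 and 37 of bta-miR-137, entries named after their values were seen. In comparison, bta-miR-29a was read as 43 to 59 distinct sequences a library. Bta-miR-29a had 41.5 times the reads of hsa-miR-29a-5p in HG replicate 2 and 1792 times over the other 7 libraries. Hsa-miR-29b-1-5p had 4 reads in forage replicate 2 and 2 in HG replicate 2, and hsa-miR-29b-2-5p had 2 reads each in forage replicates 3 and 4 and HG replicate 3. The latter entry is placed both in the hairpin of bta-miR-29b on chromosome 16 (chr16:77478043-77478064) and in the bta-mir-29e hairpin (chr16:77562009-77562030), and its reads cannot be assigned to either.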

How the data were processed

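Per the study's methods, RNA of rumen fluid was made into small RNA libraries (NETflex kit), reads were demultiplexed with bcl2fastq 2.20, trimmed with Skewer, filtered for length and quality, and run through sRNAbench with Bowtie on UMD3.1, allowing mismatches, with bovine and human miRBase entries. The authors deposited per library the read count of each entry, an expected count in which a read is divided among its matches, and RPM relative to all reads. A deposited score, RPM of miRNA reads, gave the miRNA reads of each library. The deposited normalized table was not used.

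Here, the 377 entries that reached 10 reads in 1 or more libraries went into edgeR (version 4.0.16, run in R 4.3.3; TMM, quasi-likelihood, cow and diet in the model, Benjamini-Hochberg adjustment over these entries, threshold 0.05), with DESeq2 1.42.0 as an alternative. Ratios used a pseudocount of 0.5. Expected counts were rounded to whole numbers for the alternative on divided reads. Other steps used Python 3.11.15, numpy 2.4.6, pandas 2.3.3 and scipy 1.17.1. Scripts were tested on simulated data. Coordinates are 1-based. Wilson intervals and limits for 0 reads cover counting error only, since the tables hold no molecular identifiers, whereas the intervals of the edgeR fold changes include the spread between libraries.

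The same 4 cows were sampled on both diets, and libraries were paired by the numbers in the labels, which do not name the cows. Deviations of same-numbered libraries from their diet's mean correlated at 0.00, -0.06, 0.06 and 0.01, so the pairing is an assumption. Counts of cows and paired tests rest on it. Named were the 5 members, all human miR-29 entries, the 3 bovine entries most like bta-miR-29a, and up to 3 of the most-read members of a list as examples. Other entries (bta-miR-2285au, bta-miR-11992, bta-miR-137, bta-miR-2285ak-5p, bta-miR-2285bh and the members shared by lists) fall outside this rule and were picked once their values were known. The members, marker lists and tests were chosen with earlier results of these data known. Alternatives changed the scaling, the filter, the tool, the pairing, the reads and the libraries.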

Additional observations from a re-analysis of the deposited data

Results flagged for a closer look

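In 7 of 32 groups of 4 libraries 1 library lay far from the other 3 by Dixon's criterion, which chance meets in about 1 of 20 groups of continuous values. In 4 of the 7 the other 3 libraries had 0 reads, so that any read in the remaining library meets the criterion by construction and this rate does not apply. On HG, replicate 2 stood apart for bta-miR-29a (6554 CPM), for the share of the family in miRNA reads (1.01%), for hsa-miR-29a-5p (211 RPM) and for hsa-miR-29b-1-5p (5.95 RPM, 2 reads). Also on HG, replicate 3 stood apart for hsa-miR-29b-2-5p (5.12 RPM, 2 reads). On forage, replicate 2 stood apart for bta-miR-29d-5p (27.5 CPM) and for hsa-miR-29b-1-5p (7.65 RPM, 4 reads).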

How the results depend on the processing

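No member was called under any alternative run. The count of called entries was 0 in each except without replicate 2, where it was 2 (bta-miR-2285ak-5p and bta-miR-2285bh, smallest adjusted p = 0.00433 by edgeR), so leaving out 1 cow gave 0 to 2. Without the replicate block the log2 fold changes were 0.12 for bta-miR-29a, 0.30 for bta-miR-29b (adjusted p = 0.678 by edgeR), 0.08 for bta-miR-29c, 0.15 for bta-miR-29d-3p and 0.08 for bta-miR-29d-5p, with 0 entries called. The pairing changed no call. Leaving out 1 cow in turn gave 0.01 to 0.15 for bta-miR-29a, 0.19 to 0.37 for bta-miR-29b, -0.0112 to 0.16 for bta-miR-29c, -0.0177 to 0.36 for bta-miR-29d-3p and -0.56 to 0.81 for bta-miR-29d-5p. It gave 0.04 to 0.26 for the log2 ratio of bta-miR-29b to bta-miR-29a, -0.16 to 0.12 for that of bta-miR-29c to bta-miR-29a and 0.0212 to 0.0642 percentage points for the share of the family. Bta-miR-29a was at -0.00216 and the bta-miR-29c ratio at 0.15 without the block and HG replicate 2. Bta-miR-29d-5p was at -0.00927 with total miRNA reads, -0.0479 with DESeq2 and -0.27 with same-diet libraries alike within counting noise summed, an alternative chosen after seeing the data. As a share of all reads the family differed by -0.0277 percentage points. The cause of these reversals was not tested. Bta-miR-29d-5p had 2 to 22 reads a library, and its spread exceeded counting error.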
